A study of Caenorhabditis elegans with 2 samples.

Results

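The genes described here are 34 Caenorhabditis elegans genes of the synapse and of neurons in general. They were taken by name from a list of synaptic and pan-neuronal genes, and all 34 were found among the 19973 protein-coding genes of the 6 nuclear chromosomes (Ensembl release 115, build WBcel235). They fall into 8 classes: 10 genes of vesicle release, 5 of dense-core vesicles and peptide processing, 2 of axonal transport, 2 of the cytoskeleton, 6 of the active zone, 4 of endocytosis, 3 of calcium channels and 2 pan-neuronal markers. The question was whether LIN-32, an Atonal-type basic helix-loop-helix (bHLH) transcription factor, had binding peaks beside them.

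Binding was measured by sequencing chromatin that an antibody to GFP had precipitated (ChIP-seq). Both samples, biological replicates 1 and 2 of a single group, were whole mixed-stage embryos of both sexes with a labelled age of 3 hours, collected by bleaching. All came from strain OP740, whose transgene wgIs740 holds LIN-32 joined to TY1, EGFP and FLAG tags. The transgene also holds a functional unc-119 copy, and the strain carries the tm4063 allele of unc-119, itself a member of the list. No untagged or otherwise treated group was compared. In whole embryos, binding in fewer cells and weaker binding per cell cannot be told apart.

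At a chemical synapse, vesicles are moved along the axon by kinesin motors, docked at the active zone by scaffold proteins, and fused with the membrane by the SNARE proteins when calcium enters through voltage-gated channels. The membrane is then recovered by endocytosis. Proneural bHLH factors such as LIN-32 act earlier, when cells are set on the path to a neuronal fate, whereas many of these genes serve the mature neuron. Proneural factors bind E-boxes, hexamers of the form CANNTG, as dimers with an E-protein.

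Around each annotated 5′ end of a gene a window was set that reached 2 kb upstream and 500 bp downstream, and summits were counted inside it. Many worm transcripts are trans-spliced, so an annotated 5′ end can differ from the start of transcription. Of 3 kinds of list used, the relaxed pooled list held 26004 nuclear peaks, and the stricter set, kept for its reproducibility by the authors' irreproducible discovery rate (IDR) step, held 1042. The IDR set was exactly the 1042 strongest pooled peaks by signal, so ranks in the pooled list apply to both. The replicate lists held 30000 and 22601 nuclear peaks. Signal is the authors' value per peak, on an unstated scale, and served to rank peaks within a list. The number of reads behind a peak is unknown.

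The sequences at the IDR summits of the list are shown first, because they show which peaks held E-boxes, which lay at transfer RNA (tRNA) sequences, and that the unc-64 peak did neither. Each line gives a summit with 50 bases on either side, read 5′ to 3′ on the plus strand of WBcel235. The first 3 lie in gene windows and the next 4 lie in transcribed spans outside the windows. Capitals mark E-boxes of any of the 10 CANNTG classes on either strand, except in the lines for the unc-104 intron and the second unc-33 intron peak. Those lines hold no E-box, and there the capitals mark a tRNA pseudogene and a tRNA gene. The last line, a weaker pooled peak in unc-116, was chosen after its E-boxes were seen.
syd-2 upstream peak, chrX:10556884-10556984: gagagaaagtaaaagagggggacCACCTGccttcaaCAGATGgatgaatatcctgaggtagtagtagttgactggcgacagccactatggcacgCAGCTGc
unc-116 upstream peak, chrIII:8356488-8356588: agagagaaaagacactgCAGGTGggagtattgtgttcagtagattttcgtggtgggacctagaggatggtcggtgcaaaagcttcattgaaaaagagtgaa
unc-64 upstream peak, chrIII:13275878-13275978: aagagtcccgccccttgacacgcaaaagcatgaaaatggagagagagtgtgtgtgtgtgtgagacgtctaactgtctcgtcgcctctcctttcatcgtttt
unc-104 intron peak, chrII:7001599-7001699: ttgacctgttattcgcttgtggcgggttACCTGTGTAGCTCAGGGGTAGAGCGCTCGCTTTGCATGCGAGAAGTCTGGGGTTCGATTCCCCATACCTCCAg
unc-33 first intron peak, chrIV:3521941-3522041: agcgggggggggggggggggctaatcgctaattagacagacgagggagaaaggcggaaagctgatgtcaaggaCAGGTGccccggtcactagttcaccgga
unc-33 second intron peak, chrIV:3524770-3524870: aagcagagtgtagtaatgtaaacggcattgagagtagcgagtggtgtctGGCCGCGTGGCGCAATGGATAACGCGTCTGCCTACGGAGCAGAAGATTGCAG
unc-44 exon peak, chrIV:5977576-5977676: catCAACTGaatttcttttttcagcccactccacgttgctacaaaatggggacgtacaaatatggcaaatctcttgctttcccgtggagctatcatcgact
unc-116 intron peak outside the IDR set, chrIII:8354793-8354893: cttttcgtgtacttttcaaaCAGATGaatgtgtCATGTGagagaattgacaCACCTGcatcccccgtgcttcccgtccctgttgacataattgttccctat

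The genes syd-2, unc-116 and unc-64 had an IDR peak in the window, 1 each from the active zone, transport and release classes. They make 3 of the 34 genes (8.82%, exact 95% binomial interval 1.86 to 23.7%), beside 4.16% of all protein-coding genes. The interval covers counting error over genes only, and it holds the share of all genes, so no difference is read from these 34 genes. No test was run on this share or on the later ones, whose intervals are descriptions too. The dense-core, cytoskeleton, endocytosis, calcium channel and pan-neuronal marker classes had no IDR peak in a window. All 3 summits lay between 1 and 2 kb upstream of their gene, a zone that held the strongest IDR summit of 30.9% of the 831 genes with one. With a window from 1 kb upstream to 200 bp downstream, 0 of the 34 genes had an IDR peak, beside 2.79% of all genes.

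The syd-2 gene (WBGene00006364, chromosome X, 10549106 to 10555239, minus strand) encodes liprin-α, a scaffold that organises the active zone. Its peak (10556742 to 10557125) had a signal of 132 and ranked 502 in the pooled list, 560 in replicate 1 (signal 63.3) and 538 in replicate 2 (signal 66.3). Both replicates therefore placed it among their strongest peaks at nearly the same rank. As the IDR set was kept for reproducibility, some agreement between replicates follows from that selection. The summit lay 1695 bp upstream of the 5′ end, in no annotated gene, and the next gene by 5′ end was F59F5.7 at 2569 bp. Of the 3 window peaks it alone held an E-box of the Atonal type, by which CAGATG and CAGCTG on either strand are meant. The first of these lay 9 bp from the summit and the other 44 bp, and a CACCTG lay at 22 bp. Among all IDR peaks, 31.3% had an Atonal-type hexamer within 50 bp of the summit.

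The unc-116 gene (WBGene00006840, chromosome III, 8351164 to 8355174, minus strand) encodes the kinesin-1 heavy chain, a motor that carries cargo along axonal microtubules. Its upstream peak (8356346 to 8356729) had a signal of 127 and ranked 547 in the pooled list. It ranked 390 in replicate 1 (signal 76.1) and 1148 in replicate 2 (signal 46.6), so its place differed between replicates. The summit lay 1364 bp upstream of the 5′ end, between unc-116 and the gene R05D3.8, whose own 5′ end lay 1789 bp away. A CACCTG on the minus strand, 28 bp from the summit, was its only E-box. A second, weaker pooled peak lay in an intron 331 bp downstream of the 5′ end, with a signal of 58.6 and rank 3715, and ranks of 7146 and 2463 in replicates 1 and 2. That peak held 3 E-boxes within 50 bp of its summit, of which CAGATG was of the Atonal type.

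The unc-64 gene (WBGene00006798, chromosome III, 13277258 to 13283887, plus strand) encodes syntaxin, the SNARE protein of the plasma membrane. Its peak (13275736 to 13276119) had a signal of 117 and ranked 645 in the pooled list, 704 in replicate 1 (signal 58.3) and 667 in replicate 2 (signal 60.2). The summit lay 1330 bp upstream of the 5′ end, and the next gene by 5′ end was cpf-2 at 7045 bp. No CANNTG hexamer lay within 50 bp of it, whereas 59.5% of all IDR peaks had such a hexamer. Its partners in the fusion complex, the synaptobrevin gene snb-1 and the SNAP-25 gene ric-4, had no IDR peak, and the nearest IDR summits lay 25208 and 223872 bp from their 5′ ends.

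**Figure D1:**
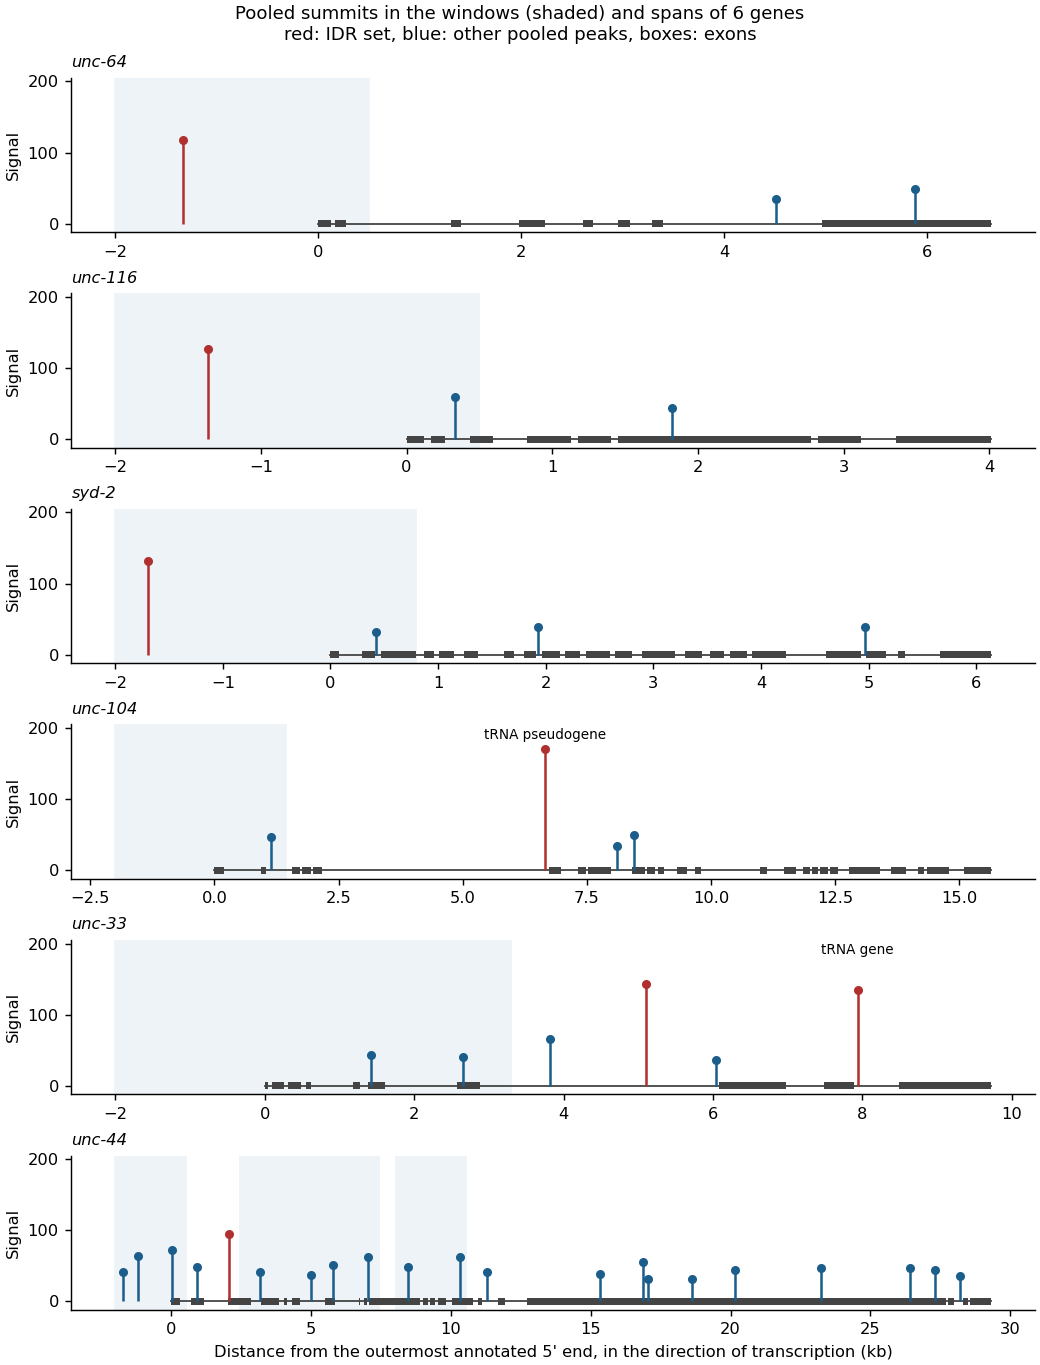
Signal of each pooled peak (authors' value, vertical axis) against distance from the outermost annotated 5′ end in kb for the 6 genes with an IDR peak in the window or the transcribed span; red stems are IDR peaks, blue stems other pooled peaks, shaded bands the windows and boxes the exons. The IDR peaks of unc-64, unc-116 and syd-2 stand alone upstream, and those of unc-104, unc-33 and unc-44 lie inside the genes.

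Inside the transcribed span but outside the window, 3 more genes had IDR peaks, all of them genes of transport and the cytoskeleton. These were unc-104, which encodes the KIF1A-type kinesin that carries synaptic vesicle precursors, unc-33, a CRMP-type microtubule regulator, and unc-44, an ankyrin. Every one of the 4 genes in the transport and cytoskeleton classes therefore had an IDR peak in its window or span, against 2 of the other 30 genes. This grouping was seen in the data and was not tested. Over the whole list 6 of 34 genes had such a peak, beside 5.12% of all protein-coding genes, and 3 had it in the span alone, beside 0.956%. The 34 genes are long, however, with a median span of 7690.5 bp against 2027 bp for all genes. Among the 17 members at or above that median, 3 had an IDR peak in the window or span, beside 14.2% of the 1629 protein-coding genes of that length. Among the 17 shorter members 3 also had one (17.6%), beside 4.31% of all such genes. An IDR peak in the span alone was found in 3 of the 17 longer members, beside 4.79% of those genes.

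Of the 4 IDR summits in spans, 2 lay at tRNA sequences. The unc-104 peak (chromosome II, 7001457 to 7001840) was the strongest of the list, with a signal of 171 and ranks of 298 in the pooled list, 280 in replicate 1 and 347 in replicate 2. Its summit lay in an intron, 5717 bp downstream of the nearest 5′ end, and inside a 72-base tRNA pseudogene, C52E12.t1 (7001627 to 7001698, RefSeq), on the strand of unc-104. The second unc-33 peak (chromosome IV, 3524628 to 3525011, signal 134) ranked 489 in the pooled list, 753 in replicate 1 and 388 in replicate 2. It lay in an intron 5136 bp downstream of the nearest unc-33 5′ end. The nearest 5′ end of any protein-coding gene was that of M57.2, 2534 bp away. The summit of this unc-33 peak fell in M57.t1, a 73-base gene that RefSeq gives as tRNA-Arg (3524819 to 3524891). An annotated non-coding RNA on the minus strand, Y37E11C.3, also lay over the summit. In the IDR set as a whole, 97 of 1042 summits lay inside a tRNA gene and 3 inside a tRNA pseudogene, out of 209 such pseudogenes. Without IDR peaks within 500 bp of a tRNA gene or tRNA pseudogene, 5 of the 34 genes had a peak in the window or span, beside 4.36% of all genes, and unc-104 was the gene lost. The sources used here do not say how reads shared between tRNA copies were placed, and the part of this in the values was not tested.

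The other IDR summits in spans lay 2828 bp or more from any tRNA gene. The first unc-33 peak (chromosome IV, 3521799 to 3522182) had a signal of 143 and ranked 421 in the pooled list, 489 in replicate 1 and 361 in replicate 2. It lay in an intron 2307 bp downstream of a 5′ end, with 61.4% GC in the bases shown, a long run of G, and an annotated non-coding RNA, M57.3, over the summit. It held a CACCTG on the minus strand 23 bp from the summit. The unc-44 peak (chromosome IV, 5977434 to 5977817, signal 94.3) ranked 998 in the pooled list, 1449 in replicate 1 and 1257 in replicate 2. It was thus near the weak end of the IDR set, and lay in an exon 2050 bp downstream of a 5′ end. None of the 4 summits in spans had an Atonal-type hexamer, so 1 of the 7 IDR peaks of the list, at syd-2, held 1. CACCTG was in 3 of the 7, beside 11.8% of all IDR peaks.

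The rest of the list had weaker peaks. Just beyond the end of the IDR set stood unc-2, which encodes the pore-forming subunit of the CaV2-type presynaptic calcium channel, with a pooled rank of 1206. Its peak had a signal of 85.7, ranked 1918 in replicate 1 (signal 40.4) and 2367 in replicate 2 (signal 37), and lay in the gene 728 bp upstream of an internal 5′ end. It held CACCTG on each strand within 50 bp of the summit. The gene also has the longest window of the list, 16516 bp. Next came unc-44 with a window peak of rank 1852, whose summit lay 21 bp downstream of a 5′ end and ranked 2918 in replicate 1 and 1474 in replicate 2.

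Several of these genes held further peaks within the 5000 strongest. In the windows of unc-44 the further peaks ranked 2711, 2911 and 3079 in the pooled list. All 3 were far stronger in replicate 1, at ranks 1884, 3153 and 2507, than in replicate 2, at ranks 17094, 13921 and 10974. A further window peak of unc-2 ranked 4150, with 4772 and 5968 in the replicates, and lay in an intron 91 bp upstream of a 5′ end. Outside its windows unc-2 had intron peaks at ranks 1444 and 4332, of which the first was matched at 2188 and 2388. An intron peak of unc-33 outside the window ranked 2469, with 4394 and 2201 in the replicates. Exon peaks outside the windows ranked 4459 for unc-44, matched in replicate 1 alone, and 4556 for rgef-1, matched in replicate 2 alone.

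Among the 2000 strongest pooled peaks were window peaks of 5 of the 34 genes (14.7%, exact interval 4.95 to 31.1%), beside 7.71% of all genes. A total of 11 of the 34 genes had a pooled peak among the 5000 strongest (32.4%, exact interval 17.4 to 50.5%), beside 16.1% of all protein-coding genes. Besides the 5 genes already named, these were rgef-1, ida-1, sad-1, egl-3, egl-19 and unc-18. From the rgef-1 peak to the unc-18 peak the deposited −log10 q-value fell from 0.88 to 0.364, against at least 1.92 in the IDR set. By that value these peaks are weakly separated from background. For rgef-1, which encodes a Ras guanine nucleotide exchange factor and whose promoter is a common pan-neuronal driver, the peak lay 226 bp upstream and ranked 2024, with 1456 in replicate 1 but 16603 in replicate 2. The ida-1 gene, which encodes an IA-2-type dense-core vesicle protein, showed the reverse, with a summit 161 bp upstream, a pooled rank of 2260, rank 1067 in replicate 2 and no match in replicate 1. The peak of egl-3, the prohormone convertase gene, lay 992 bp upstream at rank 2589, with 12204 and 2235 in replicates 1 and 2. Each of these 3 peaks ranked far higher in a single replicate than in the other.

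The peak of sad-1, a kinase gene of presynaptic assembly, lay 184 bp upstream at pooled rank 2368 and had no replicate 1 match, while its next peak, 1921 bp upstream at rank 2437, was matched at 7145 and 3002. The peak counted for egl-19, the L-type calcium channel gene that also acts in muscle, lay 1426 bp upstream at rank 2902 (signal 62.9), with 5898 and 2490 in replicates 1 and 2. It was nearer to the 5′ end of C48A7.16, at 1321 bp. The unc-18 peak, beside the gene of the syntaxin-binding Munc18 protein, lay 21 bp upstream at rank 4277 and had close ranks in the replicates, 7588 and 6888. By position, 4 of these 11 strongest summits lay 1 to 2 kb upstream, 6 within 1 kb upstream and 1 downstream. Among all 3206 genes with such a peak the shares were 32%, 52.2% and 15.8%.

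**Figure D2:**
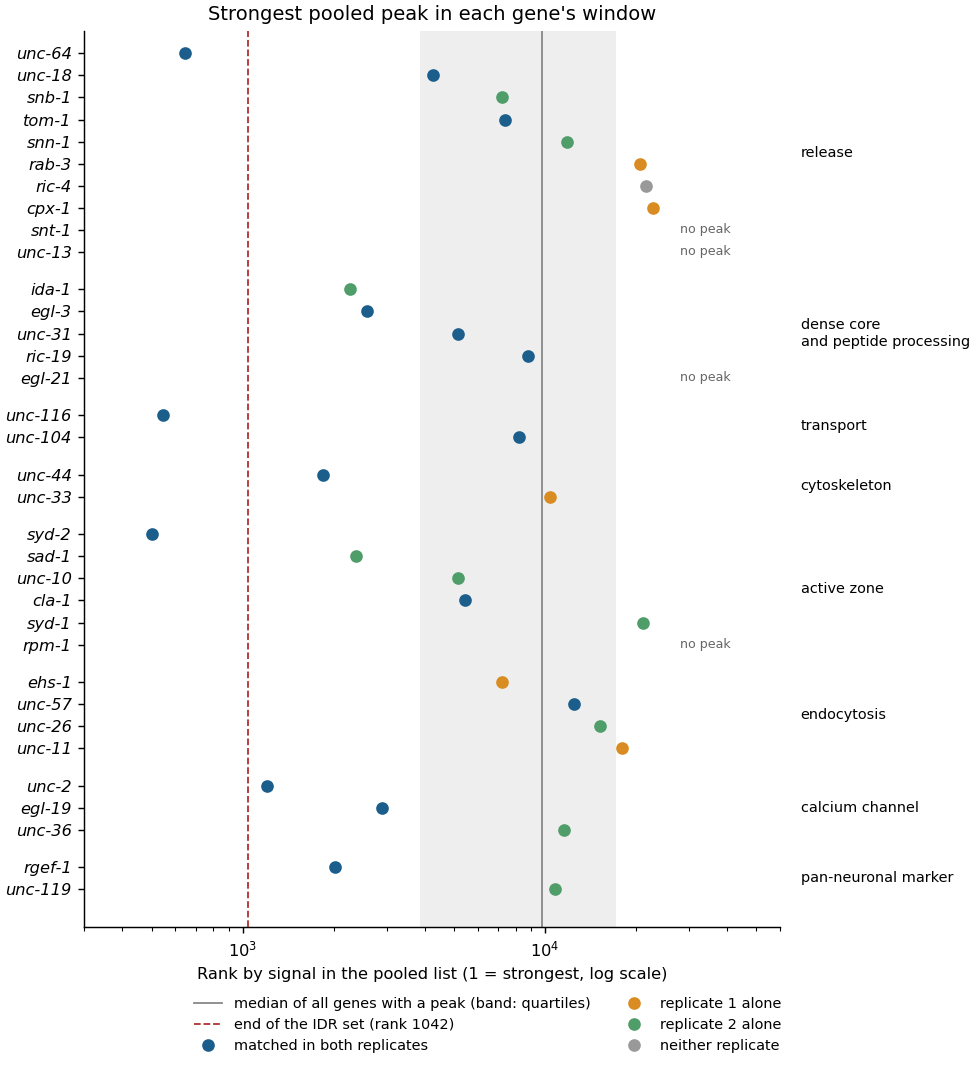
Rank of the strongest pooled window peak of each of the 34 genes (log axis, 1 is strongest), grouped by class and coloured by the replicate lists that hold a summit within 100 bp; the dashed line marks the end of the IDR set and the grey band the quartiles of all protein-coding genes with a peak. The ranks run from 502 for syd-2 to 22699 for cpx-1, and 4 genes have no pooled peak.

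Any pooled peak at all was present in the windows of 30 of the 34 genes (88.2%, exact interval 72.5 to 96.7%), beside 53.7% of all genes. The relaxed list holds background as well as peaks, and its deposited −log10 q-values reach down to 0.0175. The 4 genes without any were unc-13 and snt-1, of vesicle priming and of the calcium sensor synaptotagmin, egl-21, the carboxypeptidase gene of neuropeptide maturation, and rpm-1, a ubiquitin ligase gene of presynaptic growth. The windows of snt-1 and rpm-1 were also empty in both replicate lists. The median rank of the strongest window peak was 7190.5 over the 30 genes and 9788.5 over the 10732 protein-coding genes with a pooled peak.

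Window length bears on these shares, as genes with several 5′ ends have longer windows. The median window was 3517.5 bp for the list and 2501 bp for all genes. Among the 17 members with a window of at least the list's median length, 0 had an IDR peak, beside 8.03% of all such genes, and 4 (23.5%) had a peak among the 5000 strongest, beside 30.2%. Among the 17 members with shorter windows, 3 had an IDR peak, beside 3.65% of all such genes, and 7 (41.2%) had a peak among the 5000 strongest, beside 14.2%. Any pooled peak was found in 16 of the 17 long windows, beside 78.0% of all such genes. The median rank was 10584 against 7040 among long windows and 4720 against 10449 among short ones. Shares of the IDR set and of the 5000 strongest were thus above those of all genes among short windows and below them among long ones, and this difference was not tested. Per length of window, the list had 18.6 IDR summits per Mb (3 summits in 0.161 Mb) and all genes had 15.1, with 106 and 65.5 per Mb for the 5000 strongest pooled peaks.

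**Figure D3:**
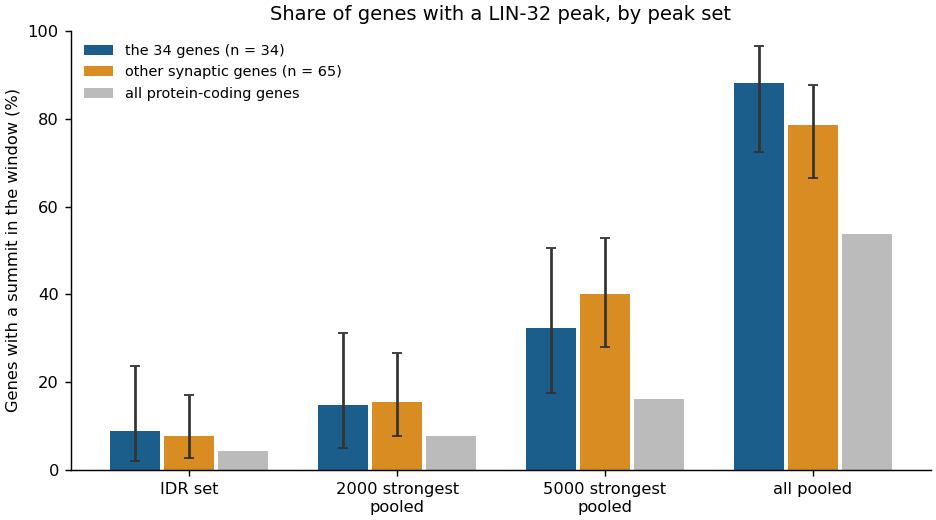
Percentage of genes with a summit in the window (vertical axis) for the IDR set, the 2000 and the 5000 strongest pooled peaks and all pooled peaks; blue bars are the 34 genes, orange bars 65 other synaptic genes and grey bars all protein-coding genes, and error bars are exact 95% binomial intervals over genes. The blue bars run from 8.82% to 88.2% and the grey bars from 4.16% to 53.7%.

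Replicate support was read from the strongest pooled peak of each window. A summit within 100 bp was present in both replicate lists for 15 of the 30 genes (50%, exact interval 31.3 to 68.7%), beside 38.2% of all protein-coding genes with a pooled peak. Of the others, 9 were matched in replicate 2 alone, 5 in replicate 1 alone and 1, ric-4, in neither. Among the genes whose strongest peak was in the top 5000, 9 of 11 were matched in both, beside 80.2% of all such genes. Taken over all genes, with a pooled peak or without, 20.5% had a strongest peak matched in both. By class, with every gene counted, such matches were found for 3 of 10 release genes, 3 of 5 dense-core and peptide genes, 2 of 2 transport genes, 1 of 2 cytoskeleton genes, 2 of 6 active zone genes, 1 of 4 endocytosis genes, 2 of 3 calcium channel genes and 1 of 2 marker genes. A peak among the 5000 strongest of a replicate lay in the windows of 8 genes in replicate 1 and 13 genes in replicate 2, beside 15.6% and 15.8% of all genes.

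**Figure D4:**
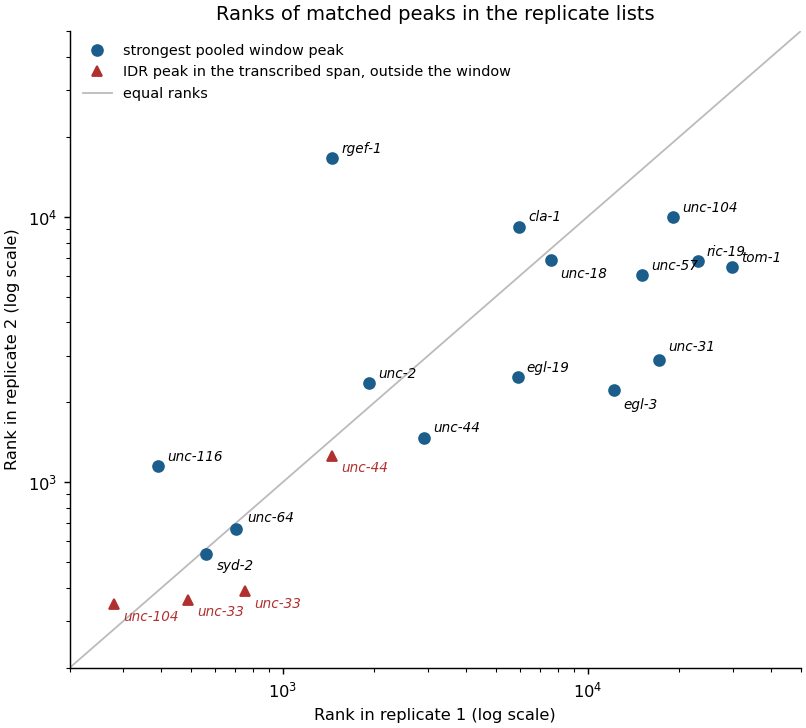
Rank in replicate 2 against rank in replicate 1 (both log axes) for the strongest pooled window peak of the 15 genes matched in both lists (blue) and for the 4 IDR peaks in spans (red); the line marks equal ranks. The peaks of syd-2, unc-64 and unc-2 lie near the line, and that of rgef-1 lies far above it, at 1456 in replicate 1 and 16603 in replicate 2.

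In the release class, the weaker peaks ran from rank 7190 to 22699. The snb-1 peak (signal 48.6) lay in an exon 424 bp downstream of the 5′ end, with a match at rank 13461 in replicate 2 alone. The tomosyn gene tom-1, an inhibitor of fusion, had rank 7391 and the synapsin gene snn-1 had 11810. The vesicle GTPase gene rab-3 (20600), ric-4 (21506) and the complexin gene cpx-1 (22699) were near the end of the pooled list. Windows can hold stronger entries in a replicate than in the pooled list: that of snb-1 held one of rank 3028 in replicate 2. For unc-13 the best replicate entries were 7379 and 16820. Apart from unc-64 and unc-18, no release gene had a pooled peak among the 5000 strongest.

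In the active zone class, unc-10, the RIM gene, ranked 5163 in the pooled list and 1231 in replicate 2, without a replicate 1 match. The clarinet gene cla-1 ranked 5431, with 5961 and 9172 in the replicates, and the RhoGAP-domain gene syd-1 ranked 21023. In the dense-core class, unc-31, the CAPS gene, ranked 5165 and 2880 in replicate 2 but 17122 in replicate 1. The ICA69-type gene ric-19 ranked 8805. The window peak of unc-104 ranked 8178 and that of unc-33 10369, so for both genes the IDR peaks lay in the gene and outside the windows of its own 5′ ends.

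In the endocytosis class no window held a peak among the 5000 strongest. The Eps15 gene ehs-1 ranked 7191 in the pooled list, with 3067 in replicate 1 and no window entry in replicate 2, and its summit held a CAGCTG. A stronger ehs-1 peak lay in an exon outside the window, at rank 3474 (signal 59.7), with 3330 in replicate 1 and no match in replicate 2. The endophilin gene unc-57 ranked 12504, the synaptojanin gene unc-26 15179 and the AP180 gene unc-11 18004. The calcium channel α2δ subunit gene unc-36 ranked 11546, with 3446 in replicate 2 alone. The unc-119 window peak ranked 10799, with 5201 in replicate 2 and no window entry in replicate 1. An unc-119 intron peak outside the window ranked 8713, with 6689 in replicate 1 and no match in replicate 2. The IDR summit nearest to an unc-119 5′ end lay 45585 bp away. Reads from the rescuing unc-119 copy and the native gene cannot be told apart if their sequences match, so the unc-119 values are uncertain.

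Over all windows of the list lay 63 pooled summits, of which 29 were upstream of the gene, 19 in introns and 15 in exons, and 2 lay nearer to the 5′ end of another gene. An Atonal-type hexamer was present at 8 of the 63, in 6 genes: syd-2, unc-116, unc-44, ehs-1, ric-19 and syd-1. Among the strongest peaks of the 30 genes 4 held such a hexamer (13.3%, exact interval 3.76 to 30.7%), beside 10.7% of the strongest peaks of all genes. Among genes whose strongest peak was in the top 5000, 1 of 11 members held one (9.09%, exact interval 0.23 to 41.3%), beside 16.6% of all 3206 such genes. Of the 5000 strongest pooled peaks, 16.8% held such a hexamer. None of these shares is over the same kind of set as the 63 summits, so the count of 8 is a description alone. A hexamer in a window of this size is a match of letters and does not show binding.

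Of 66 other genes of synaptic transmission and presynaptic assembly, 65 were matched by name, and 5 of them had an IDR peak in the window (7.69%, exact interval 2.54 to 17%), beside 4.16% of all protein-coding genes, a share inside that interval. The most strongly marked was egl-30, which encodes the Gq protein that promotes release. Its summits lay 126 bp downstream of an annotated 5′ end (signal 186, rank 248) and 57 bp upstream of a different 5′ end of the gene (118, rank 639). The others were nsf-1, the SNARE-disassembling ATPase gene (signal 164, rank 320, 452 bp upstream), and unc-14 (118, rank 632, 55 bp upstream), whose product acts with the kinase UNC-51. The unc-51 gene itself had a peak 1420 bp upstream (97.7, rank 923), and unc-70, which encodes β-spectrin, had a peak 1645 bp upstream (rank 805). The replicate 1 ranks of the last 2 were 2514 and 3109, against 664 and 426 in replicate 2. Of these peaks the unc-14 peak alone held an Atonal-type hexamer, CAGCTG. Among the 65 genes, 26 (40%) had a peak among the 5000 strongest, a share that also lay above the 16.1% of all genes. Window length bears on this share too, as 30.2% of all genes with a window of at least the first list's median length had such a peak. Per length of window, the 65 genes had 112 such summits per Mb, beside 65.5 for all genes. They were not split by window length.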

How the data were processed

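Peak lists from ChIP-seq of tagged LIN-32 in 2 biological replicates of 1 group were analysed. Per the deposited file notes, the authors called 1 relaxed list on each replicate and 1 on both together, all against the same control alignment on ce11, whose coordinates are those of WBcel235, and derived the IDR set from these 3 lists. The deposited signal value of each peak has no stated scale. The deposited −log10 q-value runs from 1.92 to 2.95 in the IDR set, and was not used to select peaks. The sources used here name no aligner, peak caller or IDR threshold. Signal tracks were not analysed here. The antibody is described as anti-GFP in 1 label field and named for lin-32 in another.

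Summits were assigned to windows around every transcript 5′ end of the 19973 protein-coding genes, and 17 mitochondrial peaks of replicate 2 were left out. Peaks matched when summits lay within 100 bp. tRNA pseudogenes came from RefSeq. The members, classes and lists were chosen with earlier results of these data known, so no test was run, and shares carry exact (Clopper-Pearson) 95% intervals that cover counting error alone. Every member is reported, with rank, position and replicate matches most fully for IDR peaks and for strongest window peaks within pooled rank 5000. Of the other synaptic genes, those with an IDR peak are named. Window assignment was checked on simulated data. Alternatives covered the window, 5′ ends, thresholds, matching distance, E-box span, tRNA genes and each replicate alone. Python 3.11.15, numpy 2.4.6, pandas 2.3.3, scipy 1.17.1 and matplotlib 3.10.9 were used.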

Additional observations from a re-analysis of the deposited data

How the results depend on the processing

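The count of 3 genes with an IDR peak came out as 2 to 4 in 7 of 12 alternatives. Among them were nearest 5′ ends, outermost 5′ ends, a 5 kb window and no peaks beside tRNA genes. The share of all genes ran from 2.88% (nearest 5′ ends) to 6.93% (5 kb window) over those 7. The count became 0 with a window from 1 kb upstream to 200 bp downstream (2.79% of all genes). It was 1 with the stronger part of the IDR set (2.09%) and 5 with the 2000 strongest pooled peaks (7.71%). It was 6 with transcribed spans added (5.12%), and 5 with spans but without peaks beside tRNA genes or pseudogenes (4.36%). The last 2 settings, and a setting with 5′ ends of protein-coding transcripts alone, were added after seeing the data. With the strongest 1042 peaks of replicate 1 alone the count was 3 (4.12% of all genes), and with those of replicate 2 alone it was 2 (4.19%). The 30 genes with any pooled peak became 11 among the 5000 strongest, beside 16.1% of all genes. With the lists of replicates 1 and 2 alone they became 27 and 28, beside 58.6% and 49.6%. The strongest peaks matched in both replicates numbered 15 within 100 bp, 8 within 50 bp and 17 within 250 bp. Overlap of the intervals also gave 17. The share of all genes was not computed at these other matching settings, so the fall to 8 cannot be set beside it. The 5 other synaptic genes with an IDR peak became 3 with the 1 kb window, 2 with the stronger part of the IDR set and 10 with the 2000 strongest pooled peaks. They were 4 and 5 with replicates 1 and 2 alone. For the settings used with these other synaptic genes, the shares of all genes are those given above. The cause of these changes was not tested. Classes hold 2 to 10 genes, so no difference between classes could be read from them. No paired analysis was possible because a single group was profiled.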
